A study of Mus musculus with 4 samples.

Results

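The hard hair keratins are the intermediate filament proteins that fill the cortex and cuticle of the hair shaft. Of them, 10 genes were taken by symbol: the type I genes Krt31, Krt32, Krt33a, Krt33b, Krt34 and Krt35 and the type II genes Krt81, Krt83, Krt84 and Krt86. All 10 were matched among the 39179 genes counted in each library, and all 10 passed the filter on low counts that left 16651 genes for testing. RNA sequencing measured them in mouse skin, background strain C57BL/6, in 4 libraries. WT 1 and WT 2 came from skin of wild-type mice, and KO 1 and KO 2 from lesional skin of Itch KO mice, which lack the ubiquitin ligase Itch. The labels name inflammation as the phenotype of every sample, WT included, and give neither age, sex, body site, hair cycle stage nor the way Itch was inactivated. Whether libraries of the same group are from different mice is not stated, so each p-value here reflects only library-to-library spread, which may be technical.

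Hair grows in cycles: in anagen the matrix at the base of the follicle divides and its daughters move up, harden and form the shaft, and in telogen no shaft is built. Hard keratins are made only on the way up. A type I and a type II chain pair to form each filament, and keratin-associated proteins then cross-link the filaments through cysteines. In human hair the genes come on in order: Krt35 early, at the matrix and the lower cortex, Krt31 in the lower cortex, Krt33a, Krt33b, Krt34, Krt81, Krt83 and Krt86 further up, and Krt32 in the cuticle. Krt84 is better known from the filiform papillae of the tongue.

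The genes lie in the keratin clusters of 2 chromosomes. On GRCm38 the 6 type I members are on the minus strand of chromosome 11, from Krt33a, which begins at 100011195, to Krt35, which ends at 100096241. The 4 type II members are on chromosome 15, from Krt81, which begins at 101459061, to Krt84, which ends at 101532820, all on the minus strand except Krt86. Part of their sequence is shared, which matters for read counts. Of all stretches of 50 bases in the longest transcript, 43.5% of Krt81 and 43.3% of Krt86 also occurred in a transcript of another gene, mostly each other's. The share was 33.1% for Krt34, 28.1% for Krt31, 24.2% for Krt33b, 23.2% for Krt83 and 21.9% for Krt33a. Krt35 shared 2.81%, and Krt32 and Krt84 shared none. How reads matching several genes were handled is not given in the sources used here, so single values of the 8 genes with shared sequence are uncertain, least so for Krt35, and sums over close relatives are given beside them. An antisense gene, Gm11571, overlaps Krt32, and without a stated strand setting its reads cannot be told apart from those of Krt32.

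All 10 members were lowest in WT 1, so the sequence before their start sites is shown for the 5 with an entry in the promoter table from RefSeq (GRCm38.p6), namely Krt31, Krt32, Krt33b, Krt34 and Krt84. Each is the 250 bases before the annotated start, 5′ to 3′ on the gene's own strand. They cover chr11:100050552-100050801 for Krt31, chr11:100088270-100088519 for Krt32, chr11:100029869-100030118 for Krt33b, chr11:100041555-100041804 for Krt34 and chr15:101532821-101533070 for Krt84, all on the minus strand. Capitals mark matches, on either strand, to CTTTGAAG, TTTTATGNG and TATAAA.
Krt31: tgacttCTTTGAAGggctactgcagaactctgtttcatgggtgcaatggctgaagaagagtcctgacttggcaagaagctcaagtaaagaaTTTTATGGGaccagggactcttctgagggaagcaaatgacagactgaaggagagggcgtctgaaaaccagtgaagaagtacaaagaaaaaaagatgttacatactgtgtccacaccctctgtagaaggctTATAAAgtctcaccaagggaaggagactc
Krt33b: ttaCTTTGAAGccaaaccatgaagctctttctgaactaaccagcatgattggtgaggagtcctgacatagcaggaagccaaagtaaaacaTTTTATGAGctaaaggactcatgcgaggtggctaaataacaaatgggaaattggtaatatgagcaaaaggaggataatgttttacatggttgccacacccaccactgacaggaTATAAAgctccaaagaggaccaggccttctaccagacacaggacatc
Krt34: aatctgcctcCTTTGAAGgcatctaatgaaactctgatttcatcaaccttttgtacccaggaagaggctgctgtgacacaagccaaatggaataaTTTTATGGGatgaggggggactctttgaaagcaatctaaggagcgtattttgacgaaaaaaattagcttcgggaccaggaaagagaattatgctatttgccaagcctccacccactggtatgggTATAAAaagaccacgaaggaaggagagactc
Krt32: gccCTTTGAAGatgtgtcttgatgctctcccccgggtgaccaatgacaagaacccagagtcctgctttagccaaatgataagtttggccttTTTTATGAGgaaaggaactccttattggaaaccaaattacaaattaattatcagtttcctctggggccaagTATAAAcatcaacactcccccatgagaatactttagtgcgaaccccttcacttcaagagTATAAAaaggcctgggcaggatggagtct
Krt84: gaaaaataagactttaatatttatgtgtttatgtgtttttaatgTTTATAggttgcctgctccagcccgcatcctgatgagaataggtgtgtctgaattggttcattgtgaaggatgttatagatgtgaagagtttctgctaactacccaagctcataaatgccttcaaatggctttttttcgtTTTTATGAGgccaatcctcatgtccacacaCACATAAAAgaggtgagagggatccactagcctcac

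The 4 type I promoters were alike in layout. CTTTGAAG, which holds the CTTTG core bound by the hair factor LEF1, stood 240 to 247 bases before the start in Krt31, Krt32, Krt33b and Krt34, on the gene's own strand. Krt84 had no match to it. TTTTATGNG, which fits the core described for the homeobox factor HOXC13, stood 155 to 160 bases before the start in the same 4 genes. Krt84 held it at 66 bases on its own strand and at 36 bases on the other. The TATA letters TATAAA stood 29 to 47 bases before the start in the 4 type I genes, with a second match at 88 bases in Krt32, and 206 bases before the start on the other strand in Krt84. Of 32851 promoter windows of this length, 1.42% held CTTTGAAG, 0.843% held TTTTATGNG and 12.4% held TATAAA; no matches overlapped in these 5 genes. Among other hard keratins with a window, 4 in number, Krt39 held both of the first motifs and Krt82 held TTTTATGNG. Of 8 windows of inner root sheath and companion layer keratins, 0 held CTTTGAAG, 1, Krt75, held TTTTATGNG and 7 held TATAAA. Of 51 windows of keratin-associated protein genes, 11.8% held CTTTGAAG, 7.84% TTTTATGNG and 80.4% TATAAA. The motifs were picked after reading these promoters, neighbouring type I genes share ancestry, and a match describes letters, not a bound site.

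WT 1 held almost no hard keratin RNA, while WT 2 and both knockout libraries held much. Over the 10 genes, 219 reads were counted in WT 1, 16956 in WT 2, 30386 in KO 1 and 26457 in KO 2. Scaled to library size (CPM, reads per 1e+06 library reads after TMM scaling), the sums were 14.6, 1070.3, 1919 and 1686 CPM. The WT 1 count has an exact 95% Poisson interval of 191 to 250 reads, so counting error does not close the gap. All 10 genes were lower in WT 1 than in each of the other 3 libraries. In bulk skin, fewer hair-forming cells and less RNA per cell cannot be told apart.

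**Figure D1:**
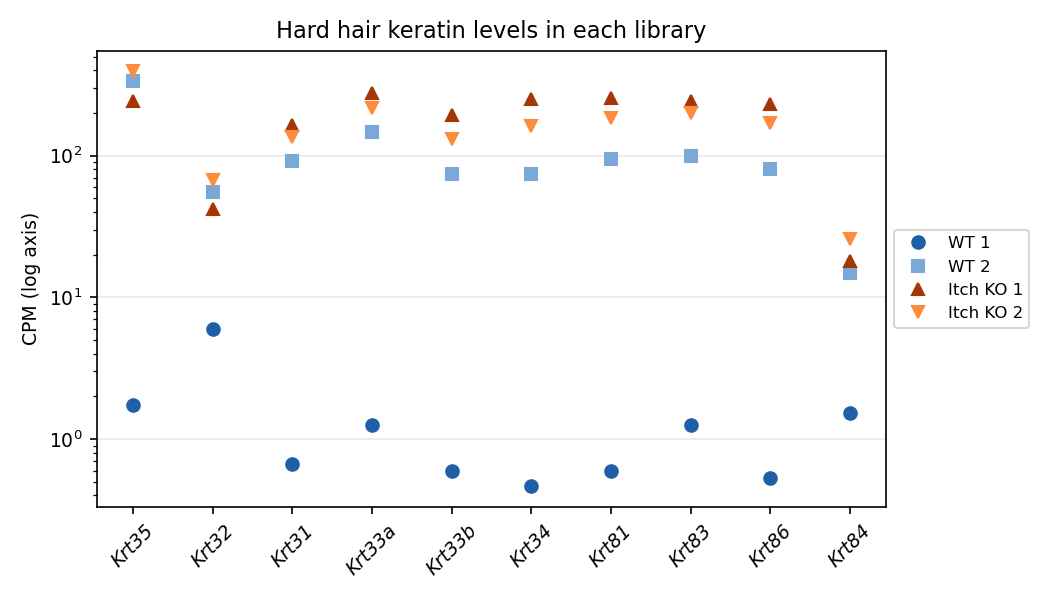
Level of each hard hair keratin (CPM, log axis) in each library, with 1 point per library and no averaging. WT 1 lies below every other library for all 10 genes, by the least for Krt32 and Krt84, and WT 2 lies between the knockouts for Krt35 and Krt32 and below both for the other 8.

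Krt35, the type I keratin that comes on early, was the member with the highest level per length in WT 2 and KO 2. It had 26 reads in WT 1, 5333 in WT 2, 3872 in KO 1 and 6164 in KO 2, or 1.73, 337, 245 and 393 CPM. WT 2 lay between the knockout libraries, so the groups overlapped. The edgeR quasi-likelihood test gave a log2 fold change (knockout over WT) of 0.91 with a standard error (SE) of 1.95, adjusted p = 0.800.

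Krt32, the type I keratin of the cuticle, behaved like Krt35 among the 3 high libraries but not in WT 1. Its 89, 874, 668 and 1061 reads gave 5.93 CPM in WT 1, 55.2 in WT 2, 42.2 in KO 1 and 67.6 in KO 2. WT 2 again lay between the knockouts. The log2 fold change was 0.84 (SE 1.05, adjusted p = 0.654, edgeR).

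The cortical type I keratins Krt31, Krt33a, Krt33b and Krt34 were each higher in both knockouts than in WT 2, as 42.1% of all tested genes were. Krt35, placed at the matrix and the lower cortex in human hair, is kept apart, so the cortical genes named below leave it out. Krt34, which in human hair comes on high in the cortex, had 7 reads in WT 1 (exact 95% Poisson interval 2.81 to 14.4), 1173 in WT 2, 3944 in KO 1 and 2526 in KO 2. These are 0.467, 74.0, 249 and 161 CPM, and the groups did not overlap. Its log2 fold change of 2.46 was the largest of the 10 in edgeR, with an SE of 1.88 and adjusted p = 0.467. Krt33b stood at 0.60 CPM in WT 1, 74.5 in WT 2, 193 in KO 1 and 131 in KO 2. Its close relative Krt33a stood at 1.27, 147, 278 and 216 CPM. Krt31, a main cortical keratin, stood at 0.667, 92.3, 165 and 136 CPM. In all 3 the order of libraries was that of Krt34: WT 1 lowest, then WT 2, KO 2 and KO 1. Summed over the 4 genes, so that the split of shared reads among them does not enter, though reads dropped by the counting would still be missing, the level was 3.0 CPM in WT 1, 388 in WT 2, 885 in KO 1 and 645 in KO 2.

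The cortical type II keratins Krt81, Krt83 and Krt86, whose human counterparts carry the mutations of the beaded hair disease monilethrix, showed the same order. Krt86 had 8 reads in WT 1, 1282 in WT 2, 3682 in KO 1 and 2689 in KO 2, or 0.533, 80.9, 233 and 171 CPM. Krt81 stood at 0.60 CPM in WT 1, 95.2 in WT 2, 255 in KO 1 and 183 in KO 2. Krt83 stood at 1.27, 99.7, 242 and 201 CPM. In all 3 both knockouts lay above both WT libraries, an order that 31.2% of all tested genes showed. Their sum was 2.40 CPM in WT 1, 276 in WT 2, 729 in KO 1 and 555 in KO 2. In edgeR the log2 fold changes were 2.13 for Krt83, 2.19 for Krt81 and 2.31 for Krt86, with SEs of 1.73, 1.88 and 1.86 and adjusted p of 0.493, 0.514 and 0.490.

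Krt84 stood apart in level. It had 23 reads in WT 1, 236 in WT 2, 288 in KO 1 and 402 in KO 2, or 1.53, 14.9, 18.2 and 25.6 CPM. The groups did not overlap, though WT 2 and KO 1 were close. The log2 fold change was 1.41 (SE 1.06, adjusted p = 0.458, edgeR). Per kb of exon sequence it was the lowest of the 10 in WT 2, KO 1 and KO 2, and the fifth highest in WT 1.

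No member passed the genotype test. In edgeR, 0 of 10 had an adjusted p under 0.05, where 0.00601% of all tested genes did, and 0 had an unadjusted p under 0.05, against 22.8% of all tested genes (12% higher in the knockouts). DESeq2 and limma-voom also called 0 of 10 (DESeq2 called 13.2% of the genes it tested, 7.63% as higher, and limma-voom 0 genes). Without the filter on low counts edgeR also called 0 of 10, and 0 at an unadjusted p under 0.05, where 1.99% of genes passed (1.71% as higher) and 9.44% were higher at that unadjusted p. The median log2 fold change of the 10 was 1.92, against 0.01 over all tested genes. For 8 members both knockouts lay above both WT libraries, an order that 31.2% of all tested genes showed. For all 10 members the SD in WT exceeded the WT mean, and in the knockouts it did not: Krt34, for example, had 37.3 ± 52.0 CPM in WT (SD, n = 2) and 205.0 ± 62.3 in the knockouts.

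**Figure D2:**
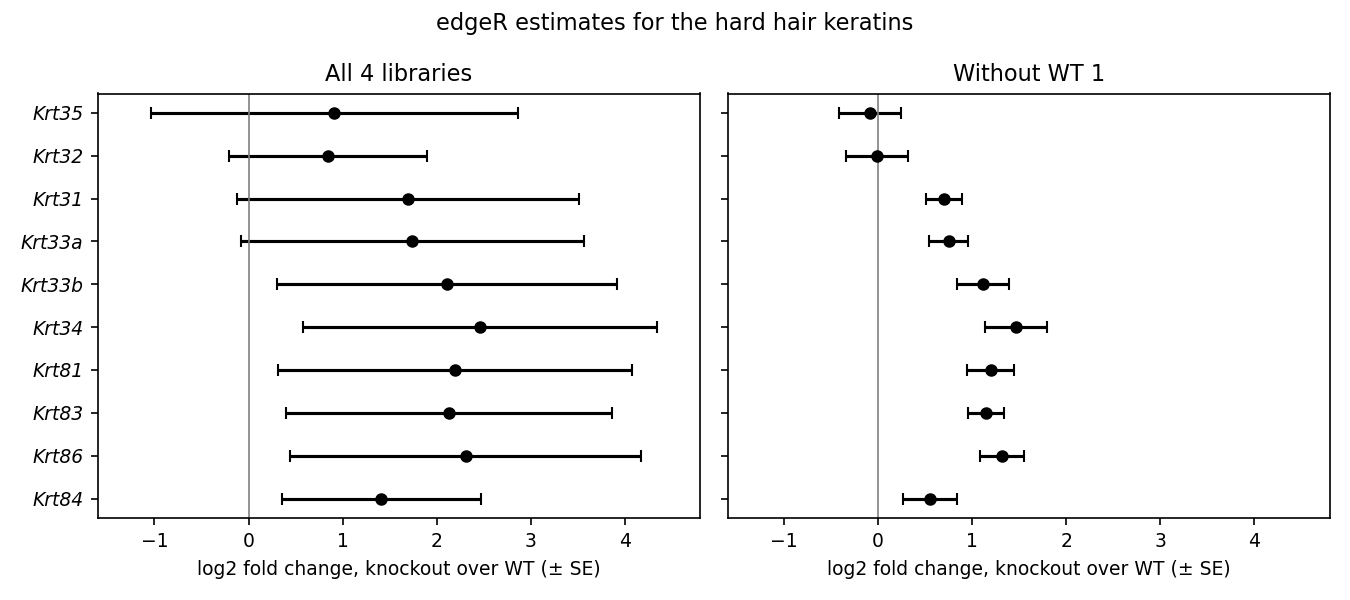
The log2 fold change of each member, knockout over WT, with its SE from edgeR, fitted on all 4 libraries (left) and without WT 1 (right). With all 4 libraries the SEs reach 1.05 to 1.95, while without WT 1 Krt35 and Krt32 lie near 0 and the other 8 lie above it.

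The result turned on which WT library was compared. Without WT 1, Krt83 and Krt86 passed in edgeR, with log2 fold changes of 1.14 (SE 0.19, adjusted p = 0.0220) and 1.32 (SE 0.24, adjusted p = 0.0344). They were 2 of 10 members, where 5.52% of all tested genes passed as higher and 7.69% in either direction. Krt81 missed at 1.20 (SE 0.25, adjusted p = 0.0525), and Krt34, which had the largest estimate at 1.47 (SE 0.33), at adjusted p = 0.0841. At an unadjusted p under 0.05, 7 of 10 were higher, all of the cortex, against 14.2% of all tested genes. Krt32 and Krt35 had estimates of -0.01 (SE 0.33) and -0.08 (SE 0.33). The 7 cortical genes share 21.9% to 43.5% of their stretches of 50 bases with other genes, Krt35, Krt32 and Krt84 at most 2.81%. The values of the 7 are thus not fully separate, and the part of shared reads was not tested. Without WT 2, all 10 passed as higher, as 15.3% of tested genes did (30.6% in either direction, and 22.2% as higher at an unadjusted p under 0.05), with log2 fold changes from 3.21 for Krt32 to 8.76 for Krt34. Each of these fits had a single WT library, taken to scatter as the 2 knockouts did. Without KO 1 or without KO 2, 0 of 10 passed in edgeR, also at an unadjusted p under 0.05.

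Set against WT 2 alone, the members fell into an ordered spread. Krt35 was 0.726 times WT 2 in KO 1 and 1.17 times in KO 2, and Krt32 0.765 and 1.23 times. Krt31 was 1.79 and 1.47 times WT 2, and Krt33a 1.90 and 1.47 times. Krt33b, at 2.59 and 1.76 times, lay higher. The highest ratios were those of Krt34, 3.36 times in KO 1 and 2.17 times in KO 2. The type II cortical genes lay between 1.92 and 2.87 times. Krt84 was 1.22 and 1.72 times WT 2. Both knockouts exceeded WT 2 in 8 of 10 members, against 42.1% of tested genes. These ratios rest on 1 WT library and were not tested as such. Those of the cortical genes, which share sequence, are not fully separate from each other.

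**Figure D3:**
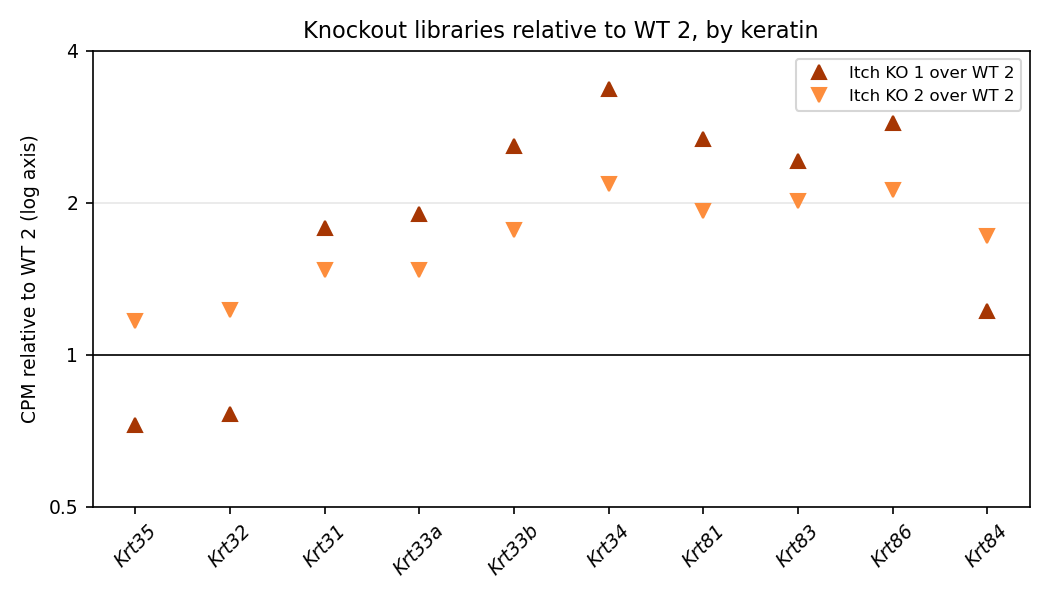
CPM in each knockout library divided by CPM in WT 2 (log axis), for each member, with the line at 1 marking equality. The 7 cortical genes other than Krt35 lie above 1 with KO 1 above KO 2, from 1.47 to 3.36. Krt35 and Krt32 lie on both sides of 1, with KO 1 the lower.

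The knockout libraries also differed from each other by gene. KO 1 was above KO 2 in the 7 cortical keratins, from 1.20 times for Krt83 to 1.55 times for Krt34. It was below KO 2 in Krt35 (0.623 times), Krt32 (0.624 times) and Krt84 (0.710 times). The ratio of Krt34 to Krt35 reads was therefore 1.02 in KO 1 and 0.410 in KO 2, against 0.269 in WT 1 and 0.220 in WT 2. This pair was chosen after the values were seen, and its WT 1 ratio rests on 7 Krt34 and 26 Krt35 reads. Both knockout values of this ratio lay above both WT values, but counting error in WT 1 leaves that order loosely set. Also, 2 libraries against 2 cannot go below p = 0.333 in a two-sided exact permutation test. For the 4 cortical type I genes summed, the ratio to Krt35 was 1.73 in WT 1, 1.15 in WT 2, 3.62 in KO 1 and 1.64 in KO 2, so there the groups overlapped. Krt32 kept almost the same ratio to Krt35 in the 3 high libraries, 0.164 in WT 2, 0.173 in KO 1 and 0.172 in KO 2, but stood at 3.42 in WT 1.

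Levels were compared between genes as CPM per kb of exon sequence. In the knockouts the 7 cortical genes and Krt35 lay between 83.1 and 164 CPM per kb. Ordered by their knockout mean (Krt35, Krt34, Krt83, Krt33a, Krt81, Krt86, Krt33b and Krt31), neighbours overlapped in their ranges over the 2 libraries, while the range of Krt31 lay below those of Krt83 and Krt33a. Krt32, at 24.5 and 39.3, and Krt84, at 6.89 and 9.70, lay below them in both libraries. In WT 2, Krt35 led with 140.5 CPM per kb, Krt33a followed with 71.2, the other 6 cortical genes lay between 41.2 and 58.4, Krt32 at 32.1 and Krt84 at 5.64. In WT 1 the order was another: Krt32 led with 3.45 CPM per kb, Krt35 had 0.723 and Krt86, the lowest, 0.272. With under 30 reads for each gene but Krt32 in WT 1, the order among those 9 is loosely set.

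As shares of the summed CPM per kb, Krt35 made up 26.0% of the pool in WT 2, 10.01% in KO 1 and 18.9% in KO 2. Krt34 made up 8.50%, 15.2% and 11.5% in the same order. In WT 1, Krt32 alone made up 44.8% and Krt84 7.54%, against at most 5.92% and 1.12% in the other libraries. The summed type I level was 3.22 times the summed type II level in WT 1, 2.71 times in WT 2, 1.70 times in KO 1 and 1.97 times in KO 2. Both WT values lay above both knockout values, where an exact permutation test again cannot go below p = 0.333. The order rested on Krt32, which held 89 of the 219 reads in WT 1: with Krt32 left out, an alternative chosen after seeing the data, the ratio was 1.33 in WT 1, 2.49 in WT 2, 1.64 in KO 1 and 1.84 in KO 2, so the groups overlapped. Krt85, a type II hair keratin not analysed here, and other type II partners are not in the sum, so the ratio is not that of the filament.

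**Figure D4:**
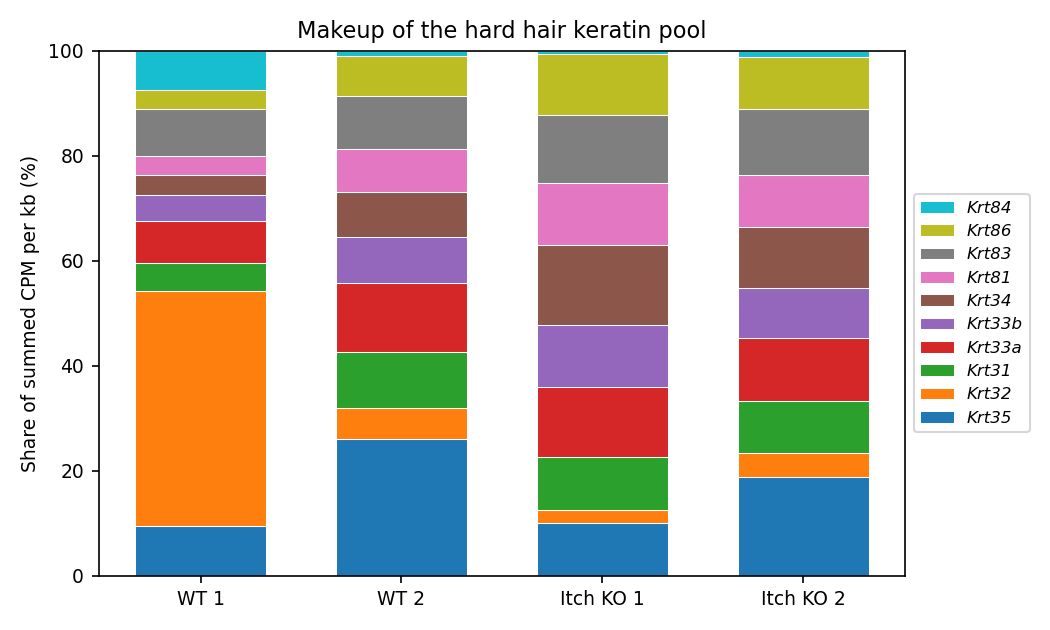
Each member's share of the summed CPM per kb of the 10 genes in each library, stacked to 100%. Krt32 takes 44.8% of the small pool of WT 1, and Krt35 takes 26.0% in WT 2, 18.9% in KO 2 and 10.01% in KO 1.

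The fall in WT 1 was not equal across the family. WT 2 was 194 times WT 1 in Krt35, 159 times in Krt34 and Krt81, 152 times in Krt86, 139 times in Krt31, 124 times in Krt33b, 116 times in Krt33a and 78.7 times in Krt83. It was 9.72 times WT 1 in Krt84 and 9.30 times in Krt32. A gap of at least 10 times was found in 8 of 10 members and in 2.23% of tested genes, and one of at least 100 times in 7 members and in 1.2% of tested genes (limits chosen after the values were seen). Each ratio compares 1 library with 1 other and has no replicate check.

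The other hard keratins were also low in WT 1. Of 6 listed, 5 had a match, and Krt85 was not analysed here. Krt87, of the type II cortical cluster, stood at 0.533 CPM in WT 1, 83.2 in WT 2, 134 in KO 1 and 115 in KO 2, the order of Krt81. Of its stretches of 50 bases, 36.9% also occurred in a transcript of another gene, so its single values are uncertain too. Krt82, the type II keratin of the cuticle, stood at 0.200, 34.5, 29.4 and 39.4 CPM, with WT 2 between the knockouts as for Krt32. Krt36 stood at 1.8, 20.9, 26.5 and 24.8 CPM, and its gap between the WT libraries, 11.6 times, was close to that of Krt84. Krt39 stood at 0.200, 4.92, 10.04 and 5.73 CPM and Krt40 at 0.0667, 8.33, 7.71 and 11.3 CPM. In edgeR 0 of 5 passed, at an adjusted or an unadjusted p under 0.05, and DESeq2 called 0.

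Genes of the structures around the shaft were also low in WT 1. Their order among the other 3 libraries is given as values, and the difference between lists was not tested. The inner root sheath and companion layer list (10 genes), whose keratins mould the growing shaft, summed to 192 CPM in WT 1, 9099 in WT 2, 6504 in KO 1 and 10035.5 in KO 2. Its companion layer keratin Krt75 was kept in WT 1, at 149 CPM against 352, 254 and 491, and its sheath keratin Krt72 stood at 1.53, 257, 313 and 382 CPM. Both knockouts lay above WT 2 in 1 of these 10 genes, Krt72, an order that 42.1% of all tested genes showed. They lay on both sides of it in 8, as in 3094 of 16651 tested genes. Among these 8, Krt71, named after its values were seen, stood at 9.60, 2608, 1707 and 2848 CPM. The ratio of summed hard keratin to summed inner root sheath keratin CPM, Krt75 and Tchh left out, was 0.492 in WT 1, 0.160 in WT 2, 0.402 in KO 1 and 0.227 in KO 2. Of the 10, edgeR and DESeq2 called 0, and 0 reached an unadjusted p of 0.05 in edgeR.

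Keratin-associated proteins, the partners of hard keratins in the shaft, were low in WT 1 and, for most genes, higher in both knockouts than in WT 2. The 55 matched genes summed to 38.3 CPM in WT 1, 2279 in WT 2, 6045 in KO 1 and 3643 in KO 2. Of 54 tested, both knockouts lay above WT 2 in 44, against 42.1% of tested genes. In edgeR 0 passed and 1, Krtap3-2, was higher at an unadjusted p under 0.05, as were 12% of all tested genes. Krtap3-2 stood at 24.4 CPM in WT 1, 60.2 in WT 2, 158 in KO 1 and 93.8 in KO 2. DESeq2 called 1 of the 54, where it called 13.2% of all genes it tested. Krtap19-1, the gene with the next smallest p, stood at 0.133, 4.29, 58.7 and 11.1 CPM.

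The 10 other genes whose pattern lay nearest to the median of the members were Gprc5d, Krtap22-2, Krtap1-3, Krtap13-1, Gm11563, Krtap26-1, Krtap6-5, Krtap6-1, Krt87 and Sprr1b. Likeness was the Euclidean distance between profiles of log2(CPM + 0.5) over the 4 libraries, each centred on its own mean, a description with no test. Gprc5d, an orphan receptor of hard keratinized tissue, was nearest at 0.228, with 0.667 CPM in WT 1, 82.9 in WT 2, 167 in KO 1 and 128 in KO 2. Sprr1b, a cornified envelope protein of stressed epidermis, stood at 3.53, 189, 510 and 473 CPM. Among the 50 nearest non-members, 28 were keratin-associated proteins. Of the members, Krt33b, at 0.200, lay closest to their median, and Krt35, Krt84 and Krt32 farthest, at 1.23, 3.13 and 3.4.

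The hair matrix regulators (21 genes) summed to 1334 CPM in WT 1, 1981 in WT 2, 1330.1 in KO 1 and 1693 in KO 2, and both knockouts lay below WT 2 in 15 of them, an order that 39.3% of all tested genes showed. Notch1, a receptor of differentiating keratinocytes, stood at 158, 146, 71.9 and 71.4 CPM (edgeR log2 fold change -1.08, SE 0.14, adjusted p = 0.0703). Gata3, a factor of the inner root sheath, stood at 330, 248, 135 and 157 CPM. Of the 21, edgeR called 0 and DESeq2 3, where DESeq2 called 13.2% of all genes it tested. In edgeR 4 reached an unadjusted p of 0.05, all lower, against 10.9% of all tested genes. Hoxc13 and Lef1, named after their values were seen because they regulate hard keratin genes, were low in WT 1. So were Shh, Dlx3, Dlx4, Msx1 and Msx2 of the same list, also named after their values were seen. Notch1 and Gata3 were not. Over the list the median log2 ratio of WT 2 to WT 1 was 0.80. Hoxc13 stood at 8.53 CPM in WT 1, 90.8 in WT 2, 55.3 in KO 1 and 104 in KO 2, and Lef1 at 1.67, 36.1, 20.2 and 39.5 CPM. For both Hoxc13 and Lef1, WT 2 lay between the knockouts, as for Krt35. That order was found in 5 of the 21 regulators and in 3094 of 16651 tested genes. Among 7 cross-linking and junction genes of the shaft, edgeR and DESeq2 called 0, with 0 reaching an unadjusted p of 0.05 in edgeR. Tgm3, a transglutaminase, stood at 3.20, 42.7, 81.2 and 93.8 CPM, and Hephl1, a ferroxidase, at 57.5, 91.4, 60.4 and 47.1 CPM.

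**Figure D5:**
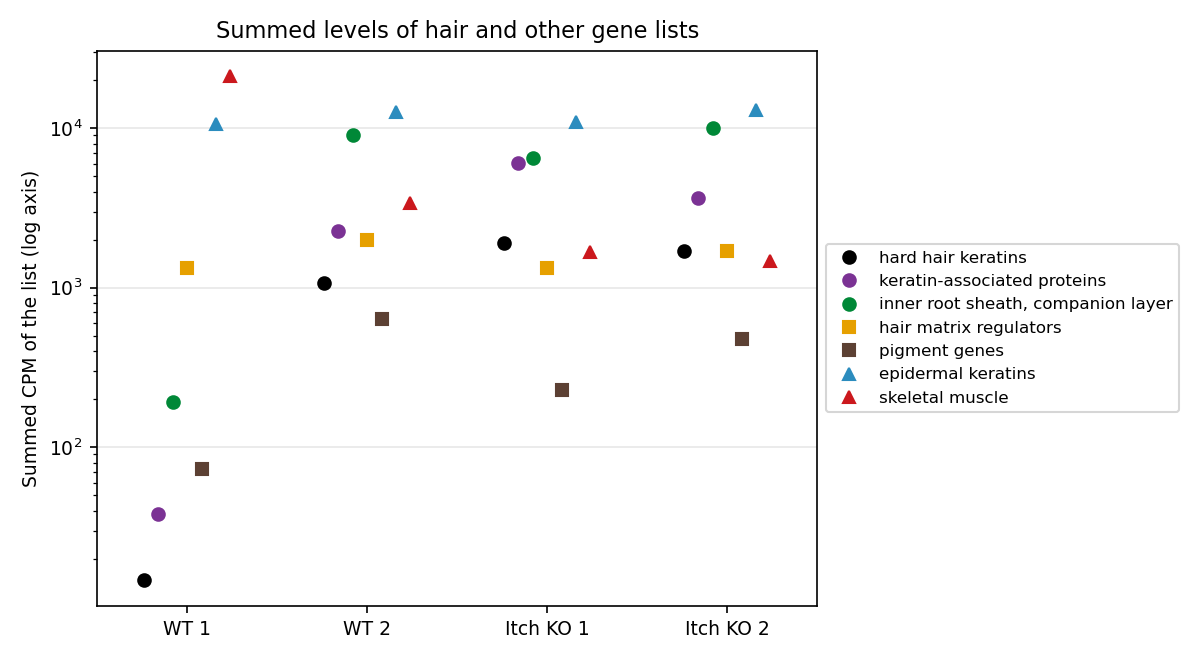
Summed CPM (log axis) of each gene list in each library, with 1 point per list and library. Hard keratins, keratin-associated proteins and the inner root sheath list are low in WT 1, where skeletal muscle is highest at 21248 CPM, while the epidermal keratins stay between 10631 and 12945.5 CPM.

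Pigment genes, which follicles express while a shaft is growing, gave another reading of the same libraries. The 9 genes summed to 73.5 CPM in WT 1, 637 in WT 2, 228 in KO 1 and 477 in KO 2, with both knockouts below WT 2 in 7 genes (39.3% of all tested genes). Among these 7, Dct, named after its values were seen, stood at 26.3, 242, 66.9 and 160 CPM. In the other 2, WT 2 lay between the knockouts: Mlana stood at 1.20, 34.5, 16.7 and 35.9 CPM and Kit at 8.13, 34.1, 26.5 and 46.5 CPM. None of the 9 had an adjusted or unadjusted p under 0.05 in edgeR, and DESeq2 called 0. The 6 follicle stem cell genes summed to 2713 CPM in WT 1, 1729 in WT 2, 1072 in KO 1 and 1044 in KO 2. Most of that sum was Krt15, so it does not speak for each of the 6. Their median log2 ratio of WT 2 to WT 1 was 0.03, against 6.28 for the hard keratin members. Krt15 stood at 2250.0, 1322, 582 and 625 CPM (edgeR log2 fold change -1.56, SE 0.32, adjusted p = 0.110). Nfatc1, the gene with the next smallest p, stood at 98.5, 70.1, 52.4 and 55.6 CPM. Of the 6, edgeR called 0 and DESeq2 1, where DESeq2 called 13.2% of all genes it tested. In edgeR 2 reached an unadjusted p of 0.05, both lower, against 10.9% of all tested genes.

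Other contents of the libraries moved with WT 1 or with genotype. The skin keratin Krt5, named after its values were seen, stood at 2920, 2848, 2845 and 2935 CPM, within a narrow range. Krt14, the other basal keratin, did not share it, at 1617, 1888, 2979 and 3475 CPM. Of 16 skeletal muscle genes, 15 were tested and 11 had both knockouts below both WT libraries (30% of all tested genes), only Tnnc2 had a library at 0 (WT 2), and the sum was 21248 CPM in WT 1, 3400 in WT 2, 1673 in KO 1 and 1472 in KO 2, with Acta1 (4121, 724, 410 and 353 CPM) and Atp2a1 (2717, 374, 172 and 158 CPM) highest among the tested. With the muscle list left out before scaling, the members' log2 fold changes ran from 0.78 to 2.39, against 0.84 to 2.46. Of 8 immune genes, 7 were higher in each knockout than in either WT library (31.2% of all tested genes). The exception was Cd3e, with 177, 92, 109 and 79 reads, and none of the 8 was at 0. The 8 summed to 349 and 322 CPM in WT and 3369 and 1751 in KO 1 and KO 2. They were led by Lyz2 (188, 188, 1032 and 573 CPM) and S100a9 (4.13, 10.7, 1049 and 447 CPM). The 4 fibroblast genes were each higher in KO 1 and KO 2 than in WT 1 and WT 2 (31.2% of all tested genes). They summed to 1350 and 2168 against 9534 and 8527 CPM, led by Col3a1 and Col1a1. The fat list (5 genes, highest in Cfd and Fabp4) summed to 3770 and 2080 against 2617 and 2691 CPM. Its other members, Adipoq, Plin1 and Lep, were lower in each knockout than in either WT library (30% of all tested genes). The list's median log2 fold change was -0.99, against 0.01 over all tested genes. In edgeR 1 was lower at an unadjusted p under 0.05, as were 10.9% of all tested genes. DESeq2 called 1, where it called 13.2% of all genes it tested. The sebaceous list (5 genes, highest in Elovl3 and Awat1) summed to 267 and 612 against 492 and 412 CPM. There Scd3, Awat2 and Mc5r were lower in each knockout than in either WT library (30% of all tested genes). The median was -1.13. In edgeR 2 were lower at an unadjusted p under 0.05 (10.9% of all tested genes), and DESeq2 called 2 (13.2% of all genes it tested). Mitochondrially encoded genes took 2.29%, 1.41%, 1.06% and 0.756% of reads. Itch itself stood at 96.7 and 103 CPM in WT and 11.7 in both knockouts, on the side of each label. By Xist (1055 and 631 CPM against 0.947 and 0.892) and 4 Y-linked genes (0.267 and 0.316 against 176 and 153 CPM), the WT libraries were female and the knockout libraries male, so genotype and sex cannot be told apart. The part of muscle, immune and fibroblast RNA, and of hair cycle stage or body site, in the hard keratin differences was not tested.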

How the data were processed

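Gene counts were analysed as deposited: the authors made 1 file of raw read counts per library. The submitters' processing notes name HTSeq 0.6.1, SAMtools 0.1.19, TopHat2 and CASAVA 1.8.2, with build mm10 (GRCm38), and give no roles. Not given in the sources used here are the strand setting, the annotation release, filters on reads and the version of TopHat2. Gene reads numbered 15407932 and 15144957 in WT 1 and WT 2, and 16008351 and 15881860 in KO 1 and KO 2. Intervals and floors cover counting error only. The 5 counter lines were removed first. They held 5.68% to 7.45% of reads as no feature and 4.48% to 4.70% as ambiguous, and the counter for non-unique alignments was 0. Libraries of a group differed by more than sampling noise (chi-square per degree of freedom 84.4 in WT, 18.4 in the knockouts).

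Symbols, coordinates and exon-union lengths came from GENCODE vM21, which matched 37607 of 39179 identifiers. Counts were fitted in R 4.3.3 with edgeR 4.0.16 (filterByExpr, minimum count 10, TMM scaling, robust legacy quasi-likelihood F test, two-sided, Benjamini-Hochberg over all tested genes, threshold 0.05), which was also checked on simulated counts. The SE is the size of the log2 fold change divided by the square root of F. Alternatives were DESeq2 1.42.0, limma-voom (limma 3.58.1), other scalings, no filter, a replicate block and leaving out each library. Members and lists were chosen with earlier results of these data known, so no p over a list is given. Named were all members, the other hard keratins, Itch and the 10 nearest in pattern. Also named were the 2 smallest p of each hair or epidermal list and the 2 highest means of each other cell type's list. Any other gene whose level or order is described was named after its values were seen, also where the text does not say so.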

Additional observations from a re-analysis of the deposited data

How the results depend on the processing

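All 10 members kept a positive log2 fold change in every alternative except the one without WT replicate 1, where Krt32 and Krt35 turned and Krt83 and Krt86 passed. Leaving out 1 library at a time, Krt32 ran from -0.011 (without WT replicate 1) to 3.21 (without WT replicate 2) and Krt35 from -0.083 to 7.52; the cause was not tested. The number of members past the threshold was 0 in the scaling, filter, DESeq2, limma-voom and replicate block settings, and 0 to 10 when 1 library was left out (2 without WT replicate 1, 10 without WT replicate 2). Over all genes, 1 passed in edgeR with all libraries, against 2240 in DESeq2, 0 in limma-voom (3582 at an unadjusted p under 0.05), 488 without a filter on low counts and 0 to 5320 when 1 library was left out (0 without either knockout library, with 1432 and 1501 at an unadjusted p under 0.05). The replicate block, with numbers that the labels do not tie to a litter, batch or day, gave 0 genes over all (3998 at an unadjusted p under 0.05) and member log2 fold changes of 1.52 to 4.45, and same-numbered deviations correlated at 0.186 across genes, which are not independent. limma-voom, which averages logs, gave 1.53 to 4.99. The type I to type II ratio was 2.71 in WT 1 without length scaling, and with the other hard keratins added it was 2.10 in WT 2, 1.49 in KO 1 and 1.67 in KO 2. With Krt32 left out, chosen after seeing the data, it was 1.33 in WT 1. Of the 10 genes nearest in pattern, 4 were kept with a pseudocount of 0.1 and 6 with 2. Low read counts limit WT 1, where 3 reads correspond to 0.200 CPM and 9 members had under 30 reads.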

Other observations

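The wound keratins are made by epidermis under stress. Both knockouts lay above both WT libraries in all 4, an order that 31.2% of all tested genes showed, with Krt6b at 6.60 CPM in WT 1, 72.5 in WT 2, 1474 in KO 1 and 1710.4 in KO 2, and Krt16 at 20.7, 190.4, 1250 and 1447 CPM. In edgeR 0 of the 4 passed, and 3 were higher at an unadjusted p under 0.05, as were 12% of all tested genes. DESeq2 called 3, where it called 13.2% of all genes it tested, 7.63% as higher. Without WT 1 the median log2 fold change of the 4 in edgeR was 2.38. WT 1 was also the lowest library for Krt6b and Krt16. Krt14 of the basal layer stood at 1617, 1888, 2979 and 3475 CPM and Krt10 of the suprabasal layers at 4274, 4128, 2331 and 2756 CPM, both with unadjusted p under 0.05 in opposite directions and neither passing in edgeR. The 8 proliferation genes summed to 275, 614, 535 and 557 CPM, with Ccnb1 at 9.40, 16.8, 21.5 and 19.2 CPM and Birc5 at 14.7, 43.5, 51.4 and 48.2 CPM, and 0 passed in edgeR, at an unadjusted p under 0.05 or in DESeq2.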
